A study of Homo sapiens with 6 samples.

Results

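Apoptosis regulators were followed through a comparison of PC3 cells that express the G protein-coupled receptor kinase GRK3 with PC3 cells that express green fluorescent protein (GFP). The members are 36 genes of the BCL2 family, the caspases, the death receptors with their adaptors, and the inhibitors of caspases. They were found by the gene symbol that the platform's annotation gives to each probe of the deposited signal table. Of the 36 genes, 35 had at least 1 probe, with 69 probes in all among 24526 on the array, and RIPK1 had no probe named here.

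PC3 is an established human prostate cancer cell line, derived from a bone metastasis, that grows without androgen. The control group was 3 arrays of PC3 cells expressing GFP, and the other group was 3 arrays of PC3 cells expressing GRK3. Both groups grew in RPMI with fetal bovine serum and antibiotics, and no drug or death stimulus is named in the labels. The promoter of the transgenes, and whether a group is 1 clone or a pool, are not given in the labels. Each array was an Illumina HumanRef-8 v3 BeadChip. Separate cultures behind the 3 arrays of a group are not named in the labels, so p-values measure only the spread between these arrays, which may be technical.

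Apoptosis is the ordered self-destruction of a cell by proteases called caspases. In the mitochondrial pathway, BH3-only proteins either engage the effectors BAX and BAK1 or bind the anti-apoptotic members of the BCL2 family, and BAX and BAK1 release cytochrome c, which builds the apoptosome with APAF1 and CASP9. In the death receptor pathway, receptors such as FAS and TNFRSF10B recruit FADD and CASP8, which CFLAR restrains. Many of these proteins are set by cleavage, phosphorylation or degradation, which a messenger RNA measurement does not read.

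No apoptosis regulator differed between GRK3 and GFP cells beyond the threshold. Of the 69 probes, 55 were detected on at least 3 of the 6 arrays and were tested, and they covered 31 genes. None of the 55 (0 probes) passed at a limma adjusted p under 0.05, with the adjustment made over all 14130 tested probes, of which 81, or 0.573%, passed (0.375% higher and 0.198% lower in GRK3 cells). The lowest limma adjusted p of a member was 0.142, for MCL1. At an unadjusted limma p under 0.05 there were 8 member probes of 6 genes, or 14.5%, against 11.6% of all tested probes. Of these 8 probes, 7 had lower and 1 had higher values in GRK3 cells. Over all tested probes such a p came with a lower value in 5.44% and with a higher value in 6.14%.

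Differences are GRK3 minus GFP in normalized log2 signal, and intervals are 95% intervals from the limma fit, not adjusted for the number of probes. The 55 differences ran from -0.45 to 0.31, with interval bounds no lower than -0.71 and no higher than 0.66, or 1.63-fold down and 1.58-fold up. All 55 intervals lay within a 2-fold difference in either direction, as did 99.1% over all tested probes. For 50 of the 55 probes (90.9%) the whole interval lay within a 1.5-fold difference in either direction, as it did for 91.9% of all tested probes. The 5 probes whose interval reached past 1.5-fold belonged to MCL1, BAX, TNFRSF10B and, with 2 probes, CASP8. The BAX probe is also the one with the difference of 0.31. It met the detection filter only through the GRK3 group, where its values were higher. The smallest difference that passed anywhere on the array was 0.50, or 1.42-fold.

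With 1 probe per gene, the tested probe with the highest mean signal, the median difference was -0.04 over the 31 genes and -0.00 over the 10586 named genes tested. The median size of a difference without its sign was 0.09 for the members and 0.09 for all named genes. Of the 31 genes, 19 had a negative and 12 a positive difference. Negative differences made up 61.3% of the members and 50.7% of all named genes.

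**Figure D1:**
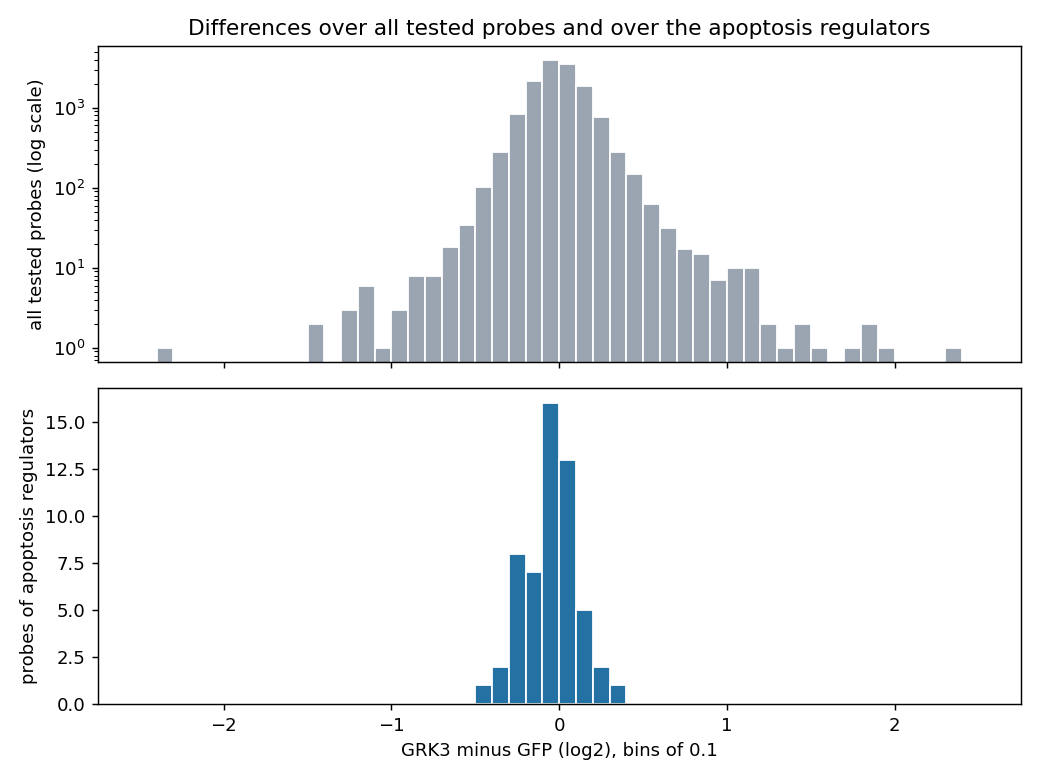
Histograms of the difference between GRK3 and GFP cells (x axis, GRK3 minus GFP in log2 signal, bins of 0.1) for all 14130 tested probes (upper panel, log count axis) and for the 55 tested probes of apoptosis regulators (lower panel). The members lie between -0.45 and 0.31, inside the bulk of the array.

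Array means of the deposited signal were 1171 to 1387, and between 56.2% and 58.6% of probes had a detection p-value under 0.05, here called detected. The single GRK3 probe was detected on 0 of 6 arrays, its detection p-values being 0.104 to 0.262, so it does not check the labels. Of the marker genes listed for cell types, 5 of 5 epithelial ones were detected on all 6 arrays, while KLK3 and TMPRSS2 of the luminal prostate list were detected on 0 arrays. The fibroblast markers COL1A2, COL3A1 and DCN, the leukocyte markers PTPRC and CD3E, and the endothelial markers CDH5, VWF and KDR were likewise detected on 0 arrays. KLK2, also of the luminal prostate list, was detected on 1 array, in the GFP group. COL1A1, LUM and PDGFRA of the fibroblast list, CD68, LYZ and CD14 of the leukocyte list, and PECAM1 of the endothelial list were detected on 5 or 6 arrays, and none (0) passed. LUM and PDGFRA had differences of 0.29 and 0.25 with an unadjusted limma p under 0.05, and COL1A1 one of -0.01. CD68 had a difference of -0.65 ± 0.16 (SE; limma adjusted p = 0.131) at ILMN_2267914 and of 0.18 at its other probe, and the part of such genes in the members' values was not tested. Without GRK3 replicate 1, 183 probes passed on the whole array in place of 81, and 0 of the 55 member probes.

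5 start regions of 4 genes are shown for the letters of a survival pathway that the wider lists touch. RefSeq start regions (GRCh38.p14) were at hand for 28 of the 36 members, 52 starts in all. BCL2L2, MCL1, BIK, CASP10, CASP1, TNFRSF10A, TNFRSF10B and TRADD had no entry in the table used. In the 250 bases before each start, both strands were searched for GGG, any 3 bases and TTCC, a form of the site bound by NF-kB, the transcription factor behind several survival genes. The letters were settled with these sequences in view, and overlapping matches were allowed. They were found at 2 of the 52 member starts (3.85%), those of CFLAR and PMAIP1, and at 5.67% of the 35116 starts of all genes. TNFAIP3, the NF-kB feedback gene described further on, holds 2 matches. CFLAR is shown at chr2:201118466-201118715, plus strand, PMAIP1 at chr18:59899746-59899995, plus strand, and TNFAIP3 at chr6:137867009-137867258, plus strand. BCL2L1, whose probes both had lower values in GRK3 cells, is shown for comparison at its starts chr20:31723964-31724213, minus strand, and chr20:31722869-31723118, minus strand, with no match in either window. Each line reads 5′ to 3′ on the gene's strand and ends at the base before the start, and capitals mark the matches on either strand.
CFLAR: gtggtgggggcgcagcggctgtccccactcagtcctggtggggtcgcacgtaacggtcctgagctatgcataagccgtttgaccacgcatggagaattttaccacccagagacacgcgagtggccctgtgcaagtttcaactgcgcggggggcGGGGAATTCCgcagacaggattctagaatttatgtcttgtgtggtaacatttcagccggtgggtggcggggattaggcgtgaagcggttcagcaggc
PMAIP1: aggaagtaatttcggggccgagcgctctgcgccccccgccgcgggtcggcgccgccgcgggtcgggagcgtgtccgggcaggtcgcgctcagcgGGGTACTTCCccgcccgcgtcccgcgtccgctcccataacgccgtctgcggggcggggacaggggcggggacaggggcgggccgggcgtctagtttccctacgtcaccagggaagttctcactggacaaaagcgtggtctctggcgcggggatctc
TNFAIP3: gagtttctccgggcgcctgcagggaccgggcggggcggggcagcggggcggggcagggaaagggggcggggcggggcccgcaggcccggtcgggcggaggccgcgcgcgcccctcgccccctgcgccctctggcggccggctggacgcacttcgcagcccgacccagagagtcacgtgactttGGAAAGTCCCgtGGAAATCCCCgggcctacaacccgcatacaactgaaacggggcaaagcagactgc
BCL2L1, outer start: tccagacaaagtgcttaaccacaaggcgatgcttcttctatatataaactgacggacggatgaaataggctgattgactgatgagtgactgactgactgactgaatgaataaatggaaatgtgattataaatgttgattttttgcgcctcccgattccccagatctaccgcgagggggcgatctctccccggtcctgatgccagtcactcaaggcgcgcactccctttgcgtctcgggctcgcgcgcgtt
BCL2L1, inner start: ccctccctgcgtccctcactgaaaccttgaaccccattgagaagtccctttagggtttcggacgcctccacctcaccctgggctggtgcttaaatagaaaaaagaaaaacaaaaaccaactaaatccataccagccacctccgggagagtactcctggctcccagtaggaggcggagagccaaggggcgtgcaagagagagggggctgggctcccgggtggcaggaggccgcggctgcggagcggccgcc
A match is a description of letters, not a measured site. CFLAR holds the letters at 1 of its 4 starts in the table and PMAIP1 at its 1 start. They had differences of 0.17 and 0.06, and neither passed. GC boxes (GGGCGG) were found at 67.3% of member starts and 42.6% of all starts, and TATA boxes (TATAAA) at 9.62% and 10.7%. Windows of the same gene can overlap, so 1 box can be counted at several starts. By gene, 21 of the 28 members held a GC box, and the share by gene over all genes was not counted.

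The anti-apoptotic BCL2 proteins hold the members with the lowest p-values. These proteins bind BH3-only proteins and BAX or BAK1 and keep mitochondria intact. All 5 genes were tested, with 7 probes, and 0 passed (limma, over all probes). An unadjusted limma p under 0.05 was seen at 3 of the 7 probes, both of BCL2L1 and one of MCL1. Over all tested probes the share was 11.6%. MCL1, a short-lived survival protein, had normalized log2 values of 8.95, 9.23 and 9.18 in GFP cells and of 8.66, 8.84 and 8.51 in GRK3 cells at probe ILMN_1756806. All GRK3 arrays lay below all GFP arrays there. The difference was -0.45 ± 0.11 (SE), or 1.37-fold, with a limma adjusted p of 0.142. At its other probe, ILMN_1803988, MCL1 had values of 10.18, 10.22 and 10.37 in GFP and of 10.15, 10.07 and 9.89 in GRK3 cells, again without overlap, and a difference of -0.22 ± 0.10 (SE), limma adjusted p = 0.453.

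BCL2L1 encodes BCL-XL, a survival protein of the outer mitochondrial membrane, and in its short splice form a death-promoting one. At probe ILMN_1654118 its values were 13.35, 13.43 and 13.45 in GFP and 13.26, 13.21 and 13.16 in GRK3 cells. At ILMN_1742410 they were 10.17, 10.40 and 10.19 in GFP and 9.92, 9.98 and 9.93 in GRK3 cells. The groups did not overlap at either probe. The differences were -0.20 ± 0.09 and -0.31 ± 0.10 (SE), with limma adjusted p-values of 0.411 and 0.233. The platform annotates both probes with the same RefSeq transcript of BCL2L1, and whether they also read other splice forms is not given.

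The remaining anti-apoptotic genes overlapped between the groups. BCL2, the founding member of the family, had a difference of -0.10 ± 0.10 (SE) at the 1 of its 3 probes that was tested. BCL2L2, which encodes BCL-W, had a difference of -0.03 ± 0.08 (SE) and an interval from -0.21 to 0.16. BCL2A1, an NF-kB target in other cell types, had values of 6.80, 6.32 and 6.48 in GFP and of 6.55, 6.74 and 6.55 in GRK3 cells, a difference of 0.09 ± 0.13 (SE). Their limma adjusted p-values were from 0.783 to 0.948.

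The effectors BAX and BAK1 form the pores that release cytochrome c. BAK1 had values of 9.16, 9.15 and 9.11 in GFP and of 9.02, 8.71 and 9.14 in GRK3 cells, with GRK3 replicate 3 inside the GFP range. The difference was -0.18 ± 0.12 (SE), and its limma adjusted p was 0.618.

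BAX was read by 3 probes that went different ways, and none of them passed. At ILMN_2321064 the difference was 0.00 ± 0.10 (SE). At ILMN_1683300 the values were 7.34, 7.45 and 7.59 in GFP and 7.26, 7.22 and 7.25 in GRK3 cells, without overlap, a difference of -0.22 ± 0.09 (SE), limma adjusted p = 0.41. The platform annotates this probe with another RefSeq transcript of BAX than the other probes. At ILMN_2258383 the difference was 0.31 ± 0.14 (SE), with a limma adjusted p of 0.438. This probe was close to background, with detection p-values from 0.0291 to 0.0939. It was detected on 1 GFP array and 3 GRK3 arrays, so it met the detection filter only through the group with higher values.

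BH3-only proteins sense damage or growth factor loss and trigger the effectors. Of the 8 genes, 6 were tested, with 10 probes, and none (0) had an unadjusted p under 0.05. BIK had values of 9.10, 9.05 and 9.24 in GFP and of 9.14, 8.76 and 8.73 in GRK3 cells. GRK3 replicate 1 lay among the GFP arrays and the other GRK3 arrays lay below them. The difference was -0.26 ± 0.12 (SE), and its limma adjusted p was 0.471. Without GRK3 replicate 1 it was -0.39, with a limma adjusted p of 0.124.

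BID, which CASP8 cleaves to link the death receptors to mitochondria, had values of 8.87, 8.70 and 8.71 in GFP and of 8.83, 9.03 and 8.93 in GRK3 cells, a difference of 0.17 ± 0.10 (SE). The other tested probe of BID had a difference of 0.01 ± 0.12 (SE). BCL2L11, which encodes BIM, had a difference of -0.05 ± 0.12 (SE) at ILMN_2359627 and of 0.16 ± 0.10 (SE) at ILMN_1774997. BAD, a BH3-only protein held in check by phosphorylation, had differences between -0.03 and 0.06 at its 3 probes. PMAIP1, which encodes NOXA, a partner of MCL1, had a difference of 0.06 with an interval from -0.16 to 0.28. HRK had the largest standard error of the 55 probes, 0.20, with values from 6.30 to 7.12 among the GFP arrays and from 6.32 to 6.84 among the GRK3 arrays, so its interval ran from -0.52 to 0.38.

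Both other BH3-only genes were not well above background. BMF was detected on 0 arrays by any of its 4 probes, with detection p-values from 0.0712 upward. BBC3, which encodes PUMA, was detected on 0 arrays, with detection p-values from 0.178 to 0.362. No difference is given for either.

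**Figure D2:**
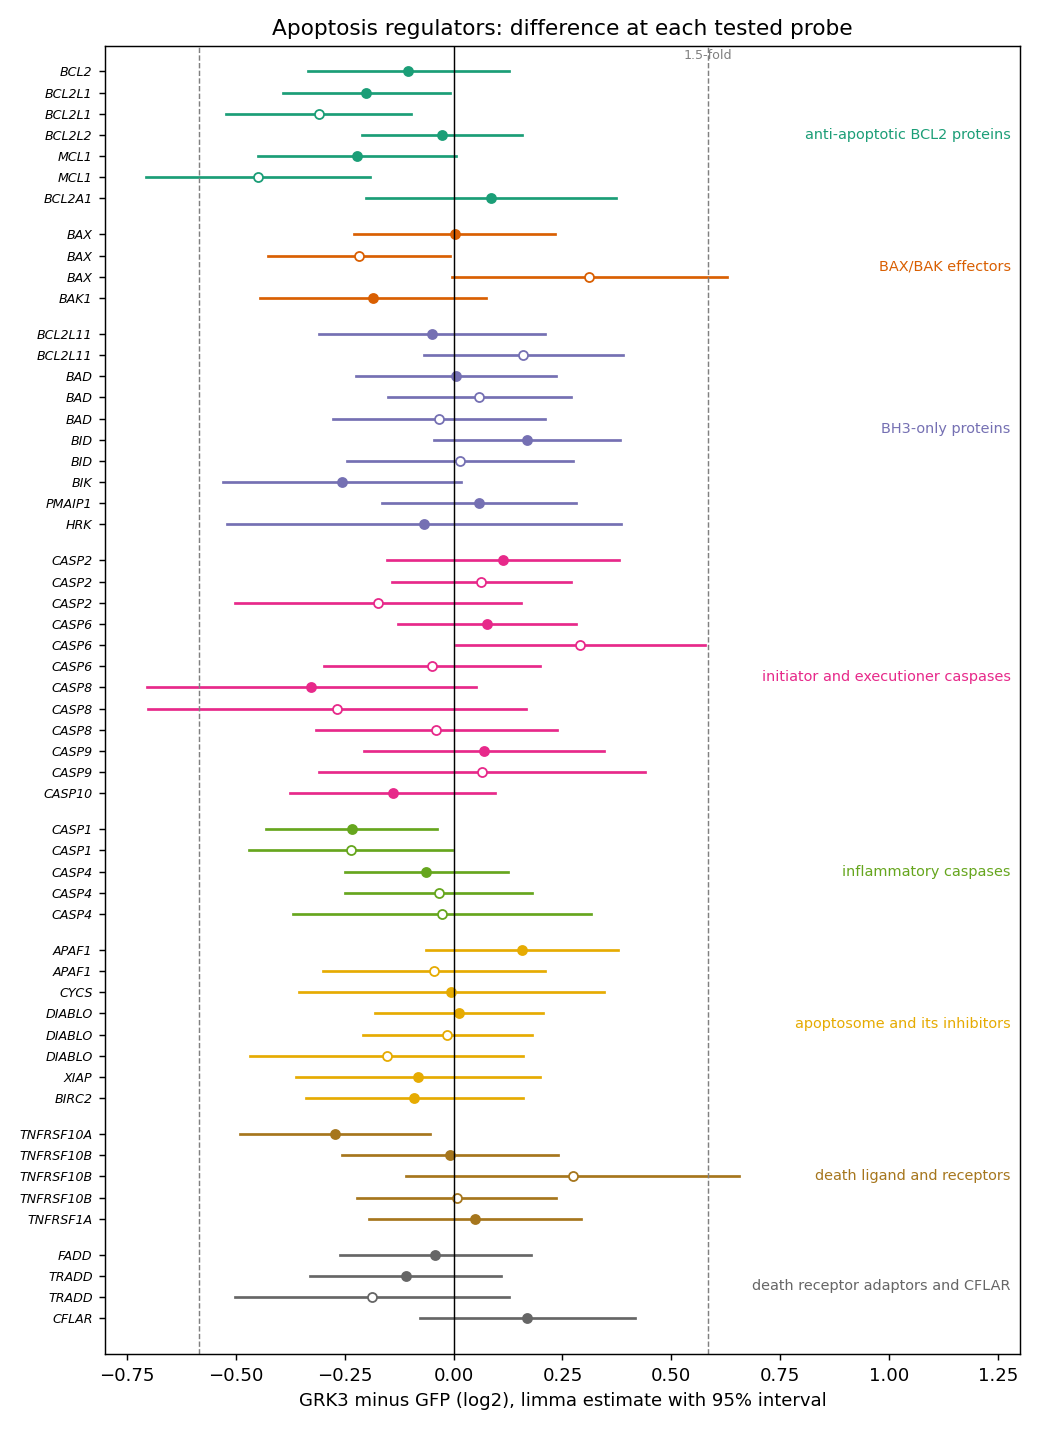
Difference between GRK3 and GFP cells (x axis, GRK3 minus GFP in log2 signal) for each of the 55 tested probes, grouped by role; points are limma estimates, bars 95% intervals, filled points the probe with the highest mean signal of its gene, and dashed lines 1.5-fold in either direction. Intervals of 50 probes lie between the dashed lines, and MCL1 has the lowest estimate at -0.45.

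Caspases that start or carry out the killing of the cell gave 12 tested probes from 5 genes, and 0 passed. CASP8, the initiator at death receptors, had values of 7.61, 7.90 and 7.83 in GFP and of 7.49, 7.81 and 7.07 in GRK3 cells at ILMN_1673757. GRK3 replicate 3 was the lowest of the 6 arrays and the other GRK3 arrays lay close to or within the GFP range. The difference was -0.33 ± 0.17 (SE), and its limma adjusted p was 0.513. At ILMN_2377733 CASP8 had values of 7.28, 7.47 and 7.61 in GFP and of 7.22, 7.62 and 6.72 in GRK3 cells, with GRK3 replicate 3 again lowest. Without GRK3 replicate 3 the difference at ILMN_1673757 was -0.13. The dimmest tested CASP8 probe, ILMN_1787749, had a difference of -0.04 ± 0.12 (SE).

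CASP6, an executioner, was the 1 member with an unadjusted p under 0.05 and a higher value in GRK3 cells. At ILMN_1694877 its values were 9.73, 9.44 and 9.54 in GFP and 10.01, 9.61 and 9.96 in GRK3 cells, where GRK3 replicate 2 lay inside the GFP range. The difference was 0.29 ± 0.13 (SE), and its limma adjusted p was 0.422. Its other probes had differences of 0.08 and -0.05. CASP9, the initiator of the apoptosome, had differences of 0.07 and 0.07 at its 2 probes, and CASP10, a relative of CASP8, one of -0.14 ± 0.11 (SE). CASP2, an initiator linked to cell division errors and stress, had differences of 0.11, 0.06 and -0.17 at its 3 probes. The limma adjusted p-values of CASP2, CASP9 and CASP10 were 0.691 or higher.

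The inflammatory caspases process interleukins and the pore protein gasdermin D. CASP1, which matures interleukin-1 beta, had values of 6.34, 6.38 and 6.31 in GFP and of 6.20, 6.04 and 6.09 in GRK3 cells at ILMN_2326509. All GRK3 arrays lay below all GFP arrays. The difference was -0.23 ± 0.09 (SE), or 1.18-fold, with a limma adjusted p of 0.331. Signal at this probe was close to background, with detection p-values from 0.0227 to 0.0356. At ILMN_2326512, which 2 GFP arrays and 1 GRK3 array detected, the difference was -0.24 ± 0.10 (SE), limma adjusted p = 0.429. CASP4, a sensor of bacterial lipopolysaccharide in the cytosol, had differences of -0.06, -0.03 and -0.03 at its 3 probes.

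The apoptosome and the inhibitors of caspases gave 8 tested probes from 5 genes, none (0) with an unadjusted p under 0.05. APAF1, the scaffold of the apoptosome, had values of 9.27, 9.46 and 9.36 in GFP and of 9.41, 9.64 and 9.51 in GRK3 cells. The groups overlapped, and the difference was 0.16 ± 0.10 (SE), limma adjusted p = 0.618. The other APAF1 probe had a difference of -0.04 ± 0.11 (SE). CYCS, which encodes cytochrome c, had values of 8.67, 8.76 and 8.86 in GFP and of 9.15, 8.64 and 8.49 in GRK3 cells. The GRK3 arrays lay on both sides of the GFP range, and the difference was -0.00 ± 0.16 (SE).

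DIABLO, which encodes SMAC, a mitochondrial protein that relieves the inhibition of caspases, had a difference of 0.01 ± 0.09 (SE) at the probe with its highest signal. XIAP, which binds and blocks caspases, had values of 7.03, 6.59 and 7.03 in GFP and of 6.86, 6.77 and 6.79 in GRK3 cells, a difference of -0.08 ± 0.13 (SE). BIRC2, a ubiquitin ligase of the TNF receptor complex also called cIAP1, had values of 10.70, 10.91 and 11.10 in GFP and of 10.80, 10.77 and 10.86 in GRK3 cells. Its difference was -0.09 ± 0.11 (SE), and its limma adjusted p was 0.832.

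**Figure D3:**
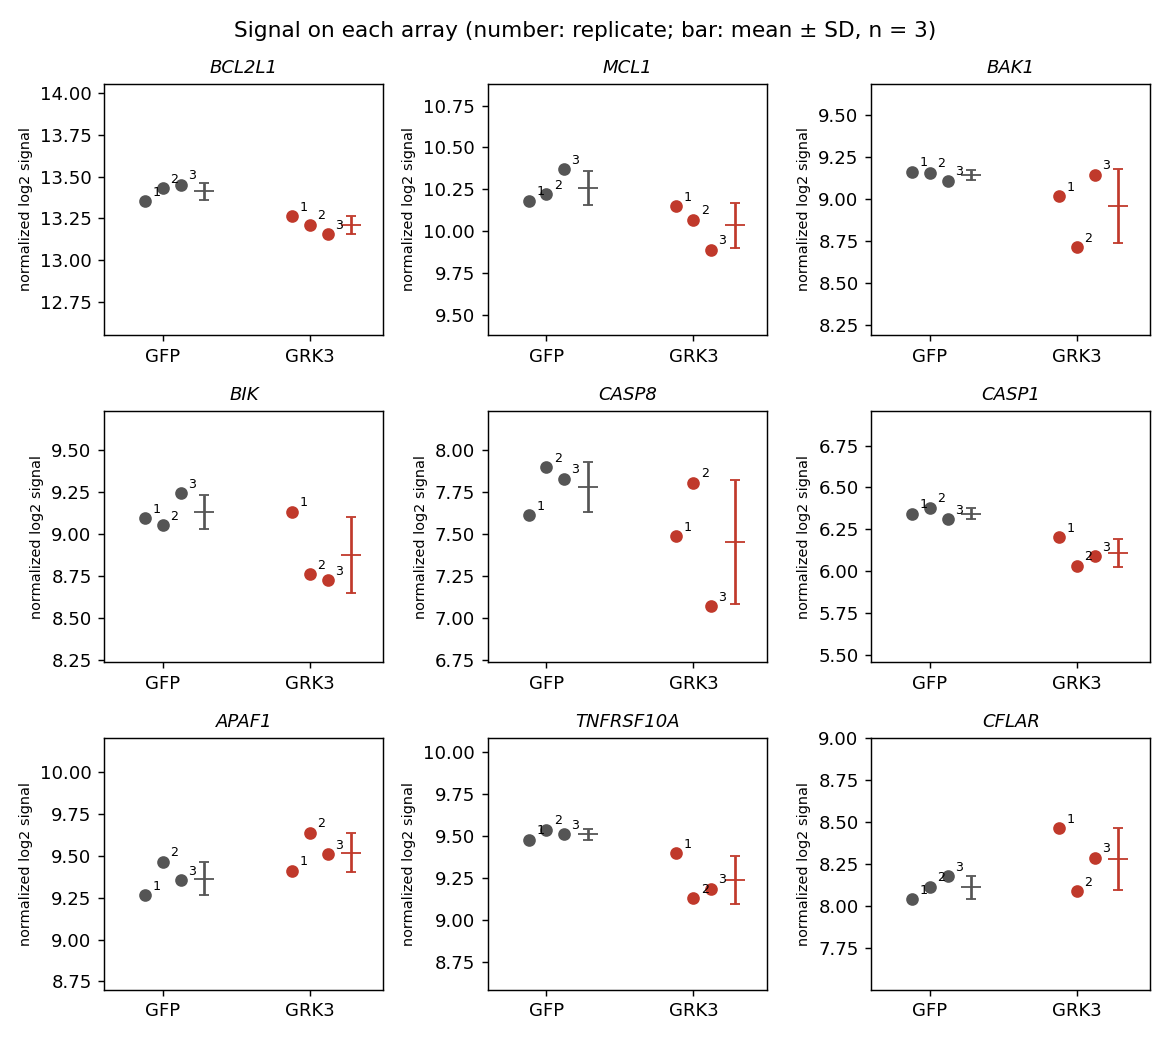
Normalized log2 signal (y axis, each panel spanning 1.5 log2 units) on the 3 GFP and 3 GRK3 arrays for 9 apoptosis regulators at the tested probe with the highest mean signal; points are arrays labelled by replicate, and bars show mean ± SD, n = 3. The groups do not overlap for BCL2L1, MCL1, CASP1 and TNFRSF10A, and they overlap for BAK1, BIK, CASP8, APAF1 and CFLAR.

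Of the death ligand and receptors, 3 of 5 genes were tested. TNFRSF10A, the TRAIL receptor DR4, had values of 9.48, 9.54 and 9.51 in GFP and of 9.40, 9.13 and 9.18 in GRK3 cells, without overlap. The difference was -0.27 ± 0.10 (SE), or 1.21-fold, with a limma adjusted p of 0.311. TNFRSF10B, the other TRAIL receptor, DR5, had values of 12.02, 11.85 and 11.84 in GFP and of 11.69, 12.00 and 11.99 in GRK3 cells at ILMN_1699265, a difference of -0.01 ± 0.11 (SE). At ILMN_2331010 its difference was 0.27 ± 0.17 (SE), with GFP replicate 1 at 8.36 among GRK3 values of 7.98, 8.43 and 8.44. TNFRSF1A, the main TNF receptor, had a difference of 0.05 ± 0.11 (SE) and an interval from -0.19 to 0.29.

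FAS and TNFSF10 were not well above background on any array. TNFSF10 encodes the ligand TRAIL, and its detection p-values ran from 0.369 to 0.987. FAS had detection p-values from 0.068 to 0.104. Each had 1 probe, and no difference is given.

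The death receptor adaptors and CFLAR gave 4 tested probes from 3 genes. CFLAR, which blocks CASP8 at the receptor and is induced by NF-kB, had values of 8.04, 8.11 and 8.18 in GFP and of 8.46, 8.09 and 8.29 in GRK3 cells. The difference was 0.17 ± 0.11 (SE; limma adjusted p = 0.631), and 0.08 without GRK3 replicate 1. FADD, the adaptor shared by FAS and the TRAIL receptors, had a difference of -0.04 ± 0.10 (SE). TRADD, the adaptor of TNFRSF1A, had differences of -0.11 ± 0.10 and -0.19 ± 0.14 (SE) at its 2 probes.

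Probes whose groups did not overlap numbered 8 of the 55 (14.5%), against 16.4% of all tested probes (8.38% lower and 8% higher), and at all 8 the GRK3 arrays were the lower ones. The 8 were both tested probes of BCL2L1, MCL1 and CASP1, 1 probe of BAX and the probe of TNFRSF10A. Those of CASP1 were close to background. Members with several probes did not always give 1 direction. Of the 16 genes with more than 1 tested probe, 8 had differences of 1 sign and 8 of both signs.

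Leaving out 1 array at a time left every member below the threshold. Of the 8 probes with an unadjusted p under 0.05, all kept their sign in the 6 such runs. MCL1 at ILMN_1756806 ran from -0.53 to -0.37, TNFRSF10A from -0.35 to -0.22 and CASP6 at ILMN_1694877 from 0.22 to 0.41. The lowest limma adjusted p of any member in these runs was 0.124, for BIK without GRK3 replicate 1. Over the whole array, 0.276%, 0.17% and 0.212% of tested probes passed without GFP replicates 1, 2 and 3, and 1.3%, 0.163% and 0.248% without GRK3 replicates 1, 2 and 3.

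**Figure D4:**
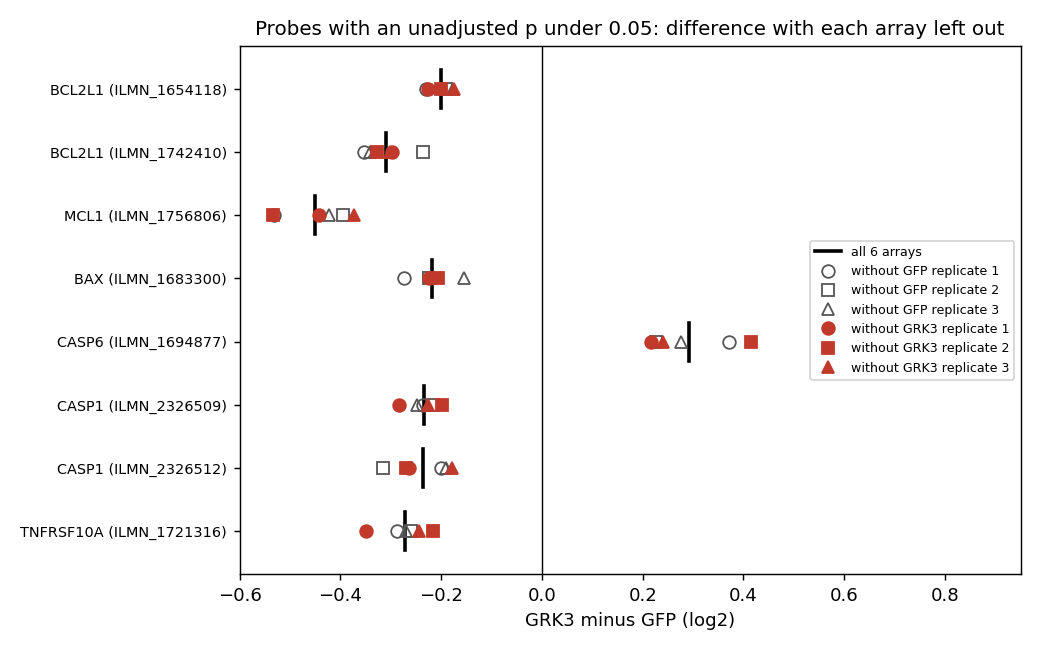
Difference between GRK3 and GFP cells (x axis, log2) for the 8 member probes with an unadjusted p under 0.05; the black bar is the value from all 6 arrays, open symbols leave out a GFP array and filled symbols a GRK3 array. All symbols of a probe lie on the same side of 0, with MCL1 between -0.53 and -0.37.

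Other genes of cell death, taken from a wider list of 46, had 29 tested and 0 passed (limma, over all probes). With 1 probe per gene, 5 (17.2%) had an unadjusted limma p under 0.05, against 11.6% of all tested probes. Of the 5, 3 had lower and 2 had higher values in GRK3 cells. BNIP3L, a mitophagy receptor related to the BH3-only proteins, had values of 9.42, 9.28 and 9.12 in GFP and of 9.55, 9.65 and 9.89 in GRK3 cells, a difference of 0.42 ± 0.12 (SE), limma adjusted p = 0.186. DAPK3, a death-associated kinase, had a difference of -0.34 ± 0.10 (SE) and a limma adjusted p of 0.219. TNFRSF10C, a decoy receptor for TRAIL, had a difference of 0.31 ± 0.10 (SE) and a limma adjusted p of 0.259. Its signal was close to background, with detection p-values from 0.0324 to 0.0971. It was detected on 1 GFP array and 3 GRK3 arrays, so it met the detection filter only through the group with higher values.

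In the list of TNF receptor signalling and NF-kB survival genes, 1 of 25 tested genes passed. TNFAIP3, which encodes A20, a feedback inhibitor of NF-kB that also protects cells from TNF-induced death, had values of 7.38, 7.52 and 7.38 in GFP and of 6.65, 6.60 and 6.39 in GRK3 cells. It fell by 0.88 ± 0.10 (SE) on the log2 scale, with a limma adjusted p of 0.00509. The share of all tested probes that passed was 0.573%. The other 24 genes did not pass. MLKL, the pore-forming effector of necroptosis, had values of 9.39, 9.26 and 9.23 in GFP and of 8.75, 8.86 and 8.81 in GRK3 cells at ILMN_1737498, without overlap. The difference there was -0.49 ± 0.09 (SE; limma adjusted p = 0.0529), and at its brighter probe it was -0.27 ± 0.09 (SE; limma adjusted p = 0.289). TRAF6, a ubiquitin ligase of interleukin-1 receptor signalling, had a difference of -0.35 ± 0.12 (SE), and NFKBIE, an inhibitor of NF-kB, one of -0.29 ± 0.11 (SE), with limma adjusted p-values of 0.289 and 0.353. The median of the list was -0.11, with 20 of 25 differences negative, beside a median of -0.00 over all named genes. Of the 25 genes, each read at its brightest tested probe, 8 (32%) had an unadjusted limma p under 0.05, all with lower values. Over all tested probes, a count by probe and not by gene, 11.6% had such a p, 5.44% with lower values. Like the other lists, it was chosen with earlier results of these data known.

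Among stress regulators upstream of BH3-only genes, 0 of 14 tested genes passed. With 1 probe per gene, 3 (21.4%) had an unadjusted limma p under 0.05, against 11.6% of all tested probes. ATF3, a stress-induced transcription factor, had values of 10.53, 10.66 and 10.09 in GFP and of 9.37, 9.85 and 9.83 in GRK3 cells. The groups did not overlap, and the difference was -0.74 ± 0.17 (SE), limma adjusted p = 0.106. SGK1, a kinase that inhibits FOXO factors, had a difference of -0.42 ± 0.10 (SE) and E2F1, a factor of S phase entry, one of -0.40 ± 0.13 (SE), with limma adjusted p-values of 0.14 and 0.263.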

How the data were processed

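The deposited table gives an average bead intensity per probe on 6 arrays, not normalized per the file headers, and a detection p-value per probe, which per the file headers belongs to the same array. A value table by the authors holds the same intensity times 1 factor per array, from 0.931 to 1.10, so that all columns have a mean of 1291.94 and medians from 131.6 to 140.7. It served as an alternative. The software behind both tables is not named in the labels or headers.

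Intensities were background-corrected from the detection p-values, quantile-normalized and log2-transformed by neqc (offset 16) in limma 3.58.1 in R 4.3.3. Quantile normalization assumes that most probes do not differ. Probes detected at p under 0.05 on at least 3 arrays were tested by lmFit and eBayes, two-sided, with Benjamini-Hochberg adjustment over 14130 probes. The test was also tried on simulated data with independent noise on each array, which cannot check p-values where arrays vary together. The number of arrays limits the precision. Probes were named from the platform annotation: 21834 have 1 symbol, 2692 none and 0 several.

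The members and lists were chosen with earlier results of these data known. Values per array are given for members with an unadjusted p under 0.05 at the probe with the highest mean, for the largest difference in each role group, and, of the 3 wider lists given, for genes that passed, with differences for the 3 largest at the probe with the highest mean. Other probes given with values, and the motifs, were chosen after values were seen. No pairing was used, since the labels do not say that same replicate numbers share a culture. Deviations of arrays from their group mean had correlations of -0.41, 0.18 and -0.41 between same numbers. The correlation was 0.51 for GFP replicate 3 with GRK3 replicate 1. For GFP replicate 1 with GRK3 replicate 3 it was 0.43. Deviations from a mean of 3 arrays cancel within a group, so a negative correlation brings positive ones with it. These values therefore cannot decide whether arrays were paired. The fit does not model any variation shared between arrays of both groups, and its source was not tested. 1 further list and some genes of the wider lists are not reported here.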

Additional observations from a re-analysis of the deposited data

How the results depend on the processing

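Across the 16 alternatives, 0 member probes passed in any, and the lowest limma adjusted p of a member was 0.0811, with the authors' value table. The median over the members stayed negative, between -0.07 and -0.01. The count over the whole array, 81, was 140 without background correction, 122 with an offset of 50, 136 with an intensity trend, 239 with array weights and 23 without a detection filter. The replicate block gave 11 and left 0 member probes past the threshold, with a lowest limma adjusted p of 0.316. The labels do not say that same numbers share a culture, so this block is an alternative and not the main fit. Deviations of the arrays of replicates 1 and 3 in both groups correlated best with another number. This does not decide whether arrays were paired. Leaving out 1 array gave 39, 24 and 30 without GFP replicates 1, 2 and 3, and 183, 23 and 35 without GRK3 replicates 1, 2 and 3. The causes of these shifts were not tested. Of 878 differences of member probes under alternatives, 57 had the opposite sign, at 25 probes, whose differences with all arrays were at most 0.15 in size. With the authors' value table, the sign turned for BAX (ILMN_2321064) at -0.034, BAD (ILMN_1738652) at -0.041, BID (ILMN_2372413) at -0.013, TNFRSF10B (ILMN_1812915) at -0.00027. With array weights, the sign turned for BAX (ILMN_2321064) at -0.016, BAD (ILMN_1738652) at -0.025, HRK (ILMN_2193706) at 0.062, TNFRSF10B (ILMN_1699265) at 0.059. With median scaling, the sign turned for BAD (ILMN_1738652) at -0.0018, DIABLO (ILMN_2332990) at 0.0032, TNFRSF10B (ILMN_1699265) at 0.0056. With 1 array left out, the ranges of the probes whose sign turned were BCL2A1 (ILMN_1769229) -0.021 to 0.22, BAX (ILMN_2321064) -0.067 to 0.056, BCL2L11 (ILMN_2359627) -0.15 to 0.028, BAD (ILMN_1738652) -0.073 to 0.076, BAD (ILMN_1720360) -0.13 to 0.037, BID (ILMN_2372413) -0.079 to 0.095, PMAIP1 (ILMN_2098446) -0.012 to 0.13, HRK (ILMN_2193706) -0.27 to 0.14, CASP2 (ILMN_2410540) -0.00929 to 0.21, CASP6 (ILMN_1659350) -0.12 to 0.067, CASP8 (ILMN_1787749) -0.19 to 0.037, CASP9 (ILMN_1718070) -0.030 to 0.17, CASP9 (ILMN_1786046) -0.13 to 0.17, CASP4 (ILMN_1774585) -0.089 to 0.023, CASP4 (ILMN_1778059) -0.20 to 0.098, APAF1 (ILMN_2344798) -0.10 to 0.073, CYCS (ILMN_1730416) -0.20 to 0.13, DIABLO (ILMN_2310589) -0.031 to 0.043, DIABLO (ILMN_2332990) -0.056 to 0.011, DIABLO (ILMN_1665335) -0.27 to 0.00359, BIRC2 (ILMN_2182704) -0.19 to 0.00898, TNFRSF10B (ILMN_1699265) -0.061 to 0.094, TNFRSF10B (ILMN_1812915) -0.065 to 0.096, TNFRSF1A (ILMN_1685005) -0.022 to 0.14, FADD (ILMN_1758658) -0.12 to 0.00403. The direction at these 25 probes is not settled by 6 arrays, where standard errors of member probes ran from 0.08 to 0.20. The other 30 probes kept their sign in every setting, which does not by itself settle their direction. BCL2L2, among them, had a 95% interval from -0.21 to 0.16. Of the 55 tested probes, 8 had an unadjusted limma p under 0.05.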
